A study of Mus musculus with 4 samples.

Results

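The genes described here are Kmt2a, Kmt2b, Kmt2c, Kmt2d and Kmt2e of the MLL family, Setd1a and Setd1b of the Set1 family, and 3 genes for proteins that work with these enzymes, Men1, Ash2l and Wdr5. They were found by symbol among the 46946 genes of the deposited count table, and all 10 were present. RNA was measured by polyA sequencing in 4 untreated mouse tumours of genotype K27M, called T14, T10, T8 and TUN, and the sample labels trace them to neural stem cells carrying PDGF and the K27M change of histone H3. The series text instead speaks of injecting cells of DIPG, a diffuse glioma of the pons, that express an H3.3 mutant, and which of these accounts applies cannot be told from the counts. The tumours form 1 group with no normal brain or second genotype beside it, so no comparison between conditions could be made. The labels state no promoter for the introduced genes, no host strain and no number of cell clones, and nothing beyond separate tumours marks them as independent.

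MLL and Set1 enzymes add methyl groups to lysine 4 of histone H3 (H3K4), a mark of active promoters and enhancers that is known to oppose Polycomb silencing through lysine 27. Each enzyme works in a complex known as COMPASS, built on the shared core subunits WDR5, RBBP5, ASH2L and DPY30, without which the catalytic SET domain has little activity. SETD1A and SETD1B carry out much of the trimethylation at active promoters, KMT2A and KMT2B are held at developmental promoters with menin, the product of Men1, and KMT2C and KMT2D mark enhancers. KMT2E belongs to the family by its SET domain but is not known as an H3K4 methyltransferase in COMPASS.

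Several of these proteins read CpG dinucleotides in DNA: KMT2A and KMT2B have a CXXC domain that binds unmethylated CpG, and the Set1 complexes have the CXXC protein CXXC1. The promoters of the genes themselves are shown for that reason. RefSeq promoter windows of build GRCm38.p6 were found for 6 of the 10 genes, and the 250 bases before the start site were searched for the motif CG, which reads the same on both strands. Below are 2 enzyme genes and 2 partner genes, 5′ to 3′ on the gene's strand with every CG in capitals. The regions are chr9:44881290-44881539 (minus strand) for Kmt2a, chr5:25498784-25499033 (minus) for Kmt2c, chr19:6334729-6334978 (plus) for the first of 3 Men1 start sites, and chr2:27514897-27515146 (plus) for Wdr5.
Kmt2a: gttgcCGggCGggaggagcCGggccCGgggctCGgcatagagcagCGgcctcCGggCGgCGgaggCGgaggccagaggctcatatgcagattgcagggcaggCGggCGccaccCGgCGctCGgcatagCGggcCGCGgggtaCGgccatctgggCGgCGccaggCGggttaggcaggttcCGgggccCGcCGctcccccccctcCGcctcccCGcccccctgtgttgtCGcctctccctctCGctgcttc
Kmt2c: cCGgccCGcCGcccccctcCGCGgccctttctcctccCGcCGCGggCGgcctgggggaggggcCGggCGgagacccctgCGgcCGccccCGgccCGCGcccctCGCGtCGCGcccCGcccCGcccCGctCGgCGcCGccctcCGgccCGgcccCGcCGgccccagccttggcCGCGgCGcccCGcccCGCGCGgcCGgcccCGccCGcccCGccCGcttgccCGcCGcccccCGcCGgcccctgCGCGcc
Men1: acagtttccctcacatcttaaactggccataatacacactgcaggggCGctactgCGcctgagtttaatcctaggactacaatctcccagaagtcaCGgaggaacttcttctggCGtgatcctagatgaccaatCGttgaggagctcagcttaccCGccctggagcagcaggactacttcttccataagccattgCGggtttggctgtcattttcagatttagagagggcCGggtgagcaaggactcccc
Wdr5: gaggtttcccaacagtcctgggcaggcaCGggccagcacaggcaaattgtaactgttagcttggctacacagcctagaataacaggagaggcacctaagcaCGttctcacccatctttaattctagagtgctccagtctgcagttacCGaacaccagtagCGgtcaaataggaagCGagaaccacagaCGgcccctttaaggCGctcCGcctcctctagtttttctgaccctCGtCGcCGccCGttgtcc

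The enzyme genes had the denser CG content of those matched. The Kmt2c window held 48 CG, the Kmt2a window 29, the Kmt2d window 26 and the Setd1a window 25. The 3 Men1 windows held 8, 10 and 9, and the Wdr5 window 12. Over 32851 promoter windows the median was 6, and 92.1% held at least 1 CG. As many CG as in Kmt2c were found in 0.186% of windows, as many as in Kmt2a in 6.78%, and as many as in Wdr5 in 33.5%. These counts describe the letters of the windows, and nothing in the count table measures binding or methylation there.

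All 10 genes were expressed in every tumour at 1 CPM or more (counts divided by library size, with library sizes adjusted by edgeR's TMM method). Library totals lay between 21664889 and 24369339 counts, and each gene had from 453 to 4067 counts in a library. Markers of oligodendrocyte precursors, the cells that PDGF-driven gliomas resemble, were present in every tumour. All 10 genes of that list were detected, from Neu4 at 2.93 to 24.3 CPM up to Olig1 at 2519 to 3981 CPM, and they summed to 9312 CPM (T14), 10809.6 (T10), 15065 (T8) and 12192 (TUN). The 7 Kmt2 and Setd1 genes and the 3 partner genes ordered the tumours in opposite ways. Every Kmt2 and Setd1 gene was higher in T14 and in T10 than in T8 or TUN, while Men1, Ash2l and Wdr5 were each higher in T8 and in TUN than in T14 or T10.

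**Figure D1:**
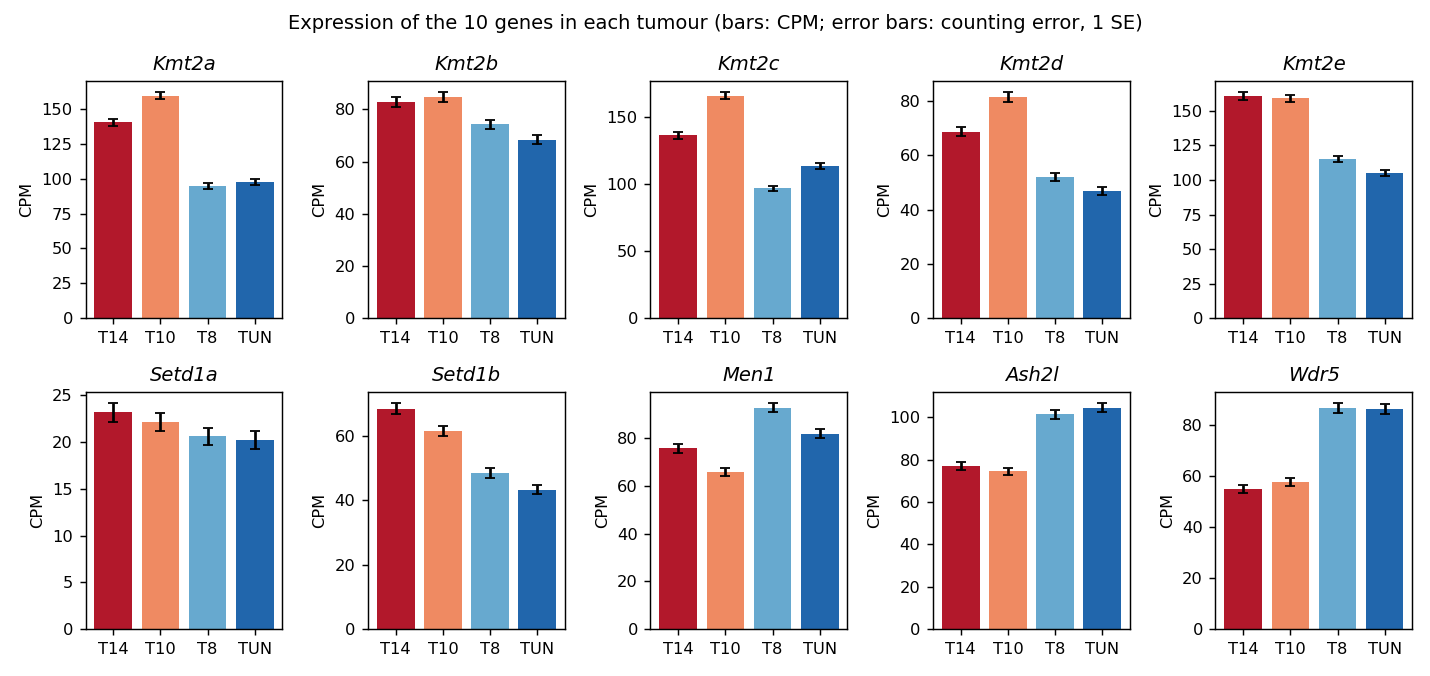
CPM of each gene (y axis, from 0) in the 4 tumours (x axis), with error bars of 1 SE of counting error. The 7 Kmt2 and Setd1 genes have their taller bars in T14 and T10, and Men1, Ash2l and Wdr5 in T8 and TUN.

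Kmt2a (ENSMUSG00000002028.12, chromosome 9, 44803355 to 44881296 in mm10) encodes MLL1, the menin-bound enzyme that is cut by rearrangements in leukaemia. It stood at 140.4 CPM (T14), 159 (T10), 94.8 (T8) and 97.3 (TUN), a mean of 123 ± 32.0 CPM (SD, n = 4). T10 was highest, and T8 and TUN lay close together at the low end. Kmt2b (ENSMUSG00000006307.16, chromosome 7, 30568858 to 30588726), the closest relative of Kmt2a, stood at 82.9 CPM (T14), 84.6 (T10), 74.2 (T8) and 68.3 (TUN). Its highest and lowest tumours differed 1.24-fold, against 1.68-fold for Kmt2a. Kmt2a had the higher CPM in every tumour, and its merged exons span 16.7 kb against 9.6 kb for Kmt2b.

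Kmt2c (ENSMUSG00000038056.15, chromosome 5, 25271798 to 25498783) encodes MLL3, an enhancer methyltransferase that is mutated in many cancers. It stood at 136 CPM (T14), 166 (T10), 96.7 (T8) and 113 (TUN). Kmt2d (ENSMUSG00000048154.16, chromosome 15, 98831669 to 98871204) encodes MLL4, whose loss in people causes Kabuki syndrome. It stood at 68.7 CPM (T14), 81.3 (T10), 52.0 (T8) and 46.9 (TUN). Kmt2d had the widest range of the 10 genes, 1.73-fold between T10 and TUN. The profiles of these genes were alike at the top, with T10 highest for each, and differed at the bottom, where T8 was lowest for Kmt2c and TUN for Kmt2d.

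Setd1a (ENSMUSG00000042308.14, chromosome 7, 127776670 to 127800122) had the lowest read count of the 10 genes and the narrowest range, at 23.2 CPM (T14), 22.1 (T10), 20.6 (T8) and 20.2 (TUN). The step between T10 and T8 was 1.53 CPM, or 1.15 times its counting error, so the order of Setd1a is not resolved at this depth. Its level is uncertain too. The annotated gene Gm49388 on the same strand covers 51.8% of its exon bases and is listed with 0 counts, and how the authors' counting treats shared bases is not given in the sources used here. Setd1b (ENSMUSG00000038384.16, chromosome 5, 123142193 to 123168629) stood at 68.6 CPM (T14), 61.6 (T10), 48.6 (T8) and 43.3 (TUN), a 1.58-fold range.

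Kmt2e (ENSMUSG00000029004.15, chromosome 5, 23434441 to 23504235) had the highest mean CPM of the 10 genes, 135 ± 29.0 CPM (SD, n = 4). It stood at 161 CPM (T14), 159 (T10), 115 (T8) and 105 (TUN). T14 and T10 differed by less than their counting error of 2.67 and 2.54 CPM. Its exons overlap Srpk2 on the opposite strand over 9.31% of its exon bases, and the library kit does not mark strand, so reads there cannot be told apart.

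Among the partner genes, Men1 (ENSMUSG00000024947.16, chromosome 19, 6334979 to 6340891), a tumour suppressor gene in endocrine tissue whose product tethers KMT2A and KMT2B to chromatin, stood at 75.8 CPM (T14), 65.8 (T10), 92.9 (T8) and 82.0 (TUN). Ash2l (ENSMUSG00000031575.17, chromosome 8, 25816191 to 25847694), a core subunit that stimulates the SET domain, stood at 76.9 CPM (T14), 74.5 (T10), 101 (T8) and 105 (TUN). Wdr5 (ENSMUSG00000026917.15, chromosome 2, 27515157 to 27536535), the core subunit that holds the enzymes through their WDR5-binding motif, stood at 55.0 CPM (T14), 57.7 (T10), 86.9 (T8) and 86.5 (TUN). The step between the higher and the lower pair of tumours was 11.6 times its counting error for Wdr5, 8.87 times for Ash2l and 2.36 times for Men1. Over all 10 genes it exceeded 2 counting errors in 9, and the exception was Setd1a. Counting errors do not cover differences in how tumours were sampled or libraries made.

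None of the 10 genes varied between tumours beyond the trend set by similarly abundant genes. The test was the goodness of fit of a 1-level edgeR model at the trended dispersion, with Benjamini-Hochberg adjustment across 14266 genes. It called 0 of the 10, against 619 of 14266 genes or 4.34% of all genes tested. At an unadjusted p under 0.05 it called 0 of the 10, against 8.38% of all genes tested, and DESeq2 marked 0 of the 10 as dispersion outliers, against 0.547%. The smallest unadjusted p was 0.578, for Kmt2a in edgeR. In simulations the test recovered 0% of genes changed 2-fold in 1 library and 26% of those changed 4-fold, so a miss does not show that these genes, which spanned 1.15-fold to 1.73-fold, were level. Their median SD of log2 CPM was 0.31, against 0.30 for all genes tested.

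The order of the tumours was shared with much of the transcriptome. CPM in T14 and T10 both above T8 and TUN was seen in 7 of the 10 genes, against 33.0% of all genes tested, and T8 and TUN both above T14 and T10 in 3 of the 10, against 32.5%. No label pairs the tumours in this way. The pairing is the one seen in the values of the 10 genes themselves, so their counts of 7 and 3 are a description and no test. Exon length moved with this order of the tumours. Of the 2067 tested genes with merged exons of 8 kb or more, 49.3% were higher in T14 and T10 and 15.4% in T8 and TUN, and 6 of the 7 Kmt2 and Setd1 genes belong to that class. Of genes with 2 to 4 kb, the class of Men1 and Wdr5, 28.2% were higher in T14 and T10 and 37.5% in T8 and TUN. Ash2l and Setd1a lie in the class of 4 to 8 kb, at 36.1% and 29.5%.

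**Figure D2:**
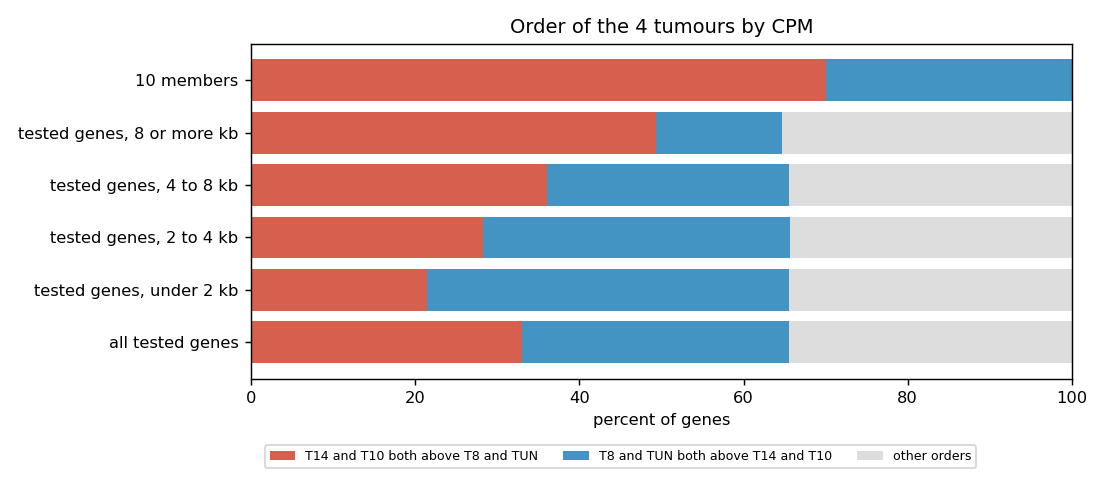
Percent of genes (x axis) in which T14 and T10 both exceeded T8 and TUN, the reverse, or another order, for the 10 genes, for tested genes by merged exon length, and for all tested genes. The share with T14 and T10 higher is 49.3% among genes of 8 kb or more, 33.0% among all tested genes and 7 of 10 among the genes described.

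On the log2 scale the median tested gene of 8 kb or more deviated from its 4-tumour mean by 0.06 (T14), 0.16 (T10), -0.12 (T8) and -0.11 (TUN). Kmt2a deviated by 0.23, 0.41, -0.34 and -0.30 in the same tumours, Kmt2d by 0.18, 0.42, -0.23 and -0.37, and Setd1b by 0.33, 0.17, -0.17 and -0.33. After the median of the length class was subtracted in each tumour, T14 and T10 remained above T8 and TUN for 6 of the 7 Kmt2 and Setd1 genes. The exception was Kmt2b, at 0.04 (T14), -0.03 (T10), 0.06 (T8) and -0.07 (TUN). Margins were narrow for Setd1a, at 0.01 (T10) against -0.04 (T8), and for Setd1b, at 0.01 (T10) against -0.05 (T8). The order of Setd1a was already unresolved by counting error. Wdr5 kept values of -0.34, -0.22, 0.30 and 0.26 after this step, and Ash2l and Men1 also stayed higher in T8 and TUN. The class of 8 kb or more has no upper bound. Kmt2a, Kmt2d and Kmt2c have merged exons of 16.67, 19.89 and 20.29 kb, and the class median need not hold at such lengths. How much of the length trend this step removed was not tested.

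**Figure D3:**
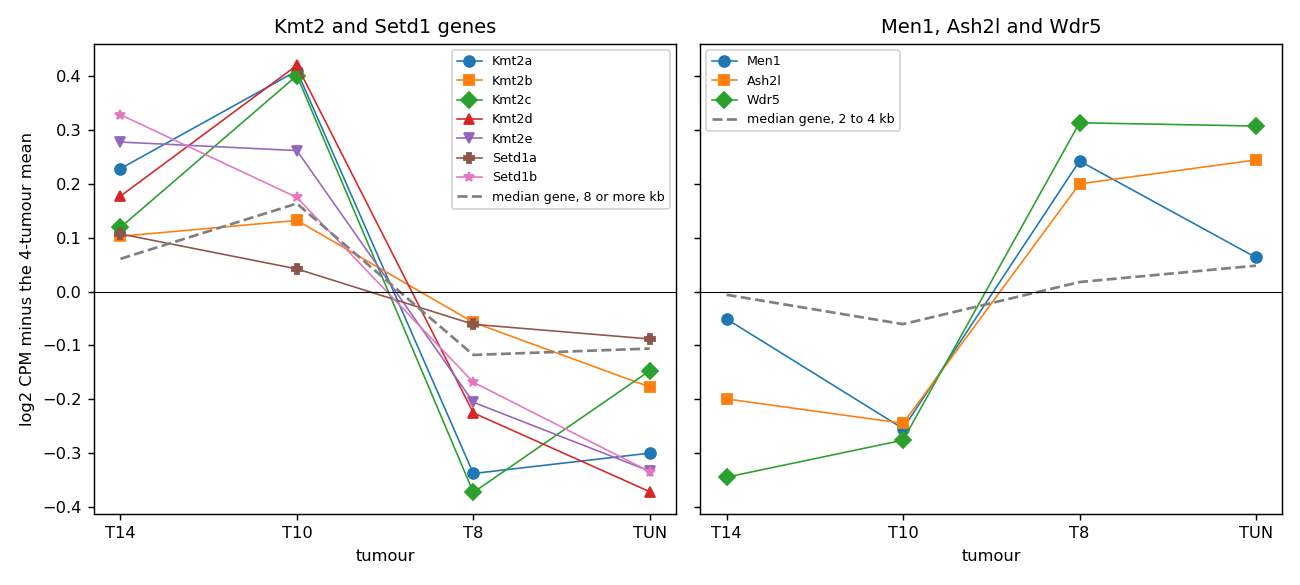
Deviation of log2 CPM from the 4-tumour mean (y axis) by tumour (x axis) for the Kmt2 and Setd1 genes (left) and for Men1, Ash2l and Wdr5 (right), with lines that only join the points of 1 gene. The dashed lines show the median tested gene of 8 kb or more, between -0.12 and 0.16, and of 2 to 4 kb, the class of Men1 and Wdr5.

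Markers of other cells moved with the same tumours. Neuron markers summed to 4524 CPM (T14), 3893 (T10), 919 (T8) and 756 (TUN), with 11 of 13 higher in T14 and T10. Mature oligodendrocyte markers summed to 4153, 5510.1, 1346 and 1313 CPM in those tumours, and astrocyte markers to 7219.8, 4627, 2223 and 2124 CPM, each with 9 of 10 genes higher in T14 and T10. Markers of cerebellar neurons summed to 3338 CPM (T14), 470.3 (T10), 50.2 (T8) and 47.5 (TUN), with 10 of 10 higher in T14 and T10. Dividing cell markers ran the other way, at 1097, 1115, 2059 and 2609 CPM, with 15 of 15 higher in T8 and TUN, and so did 8 of 10 oligodendrocyte precursor markers. The step between the pairs of tumours exceeded 2 counting errors in 15 of these 15 dividing cell markers and in 6 of these 8 precursor markers. Microglia and macrophage markers summed to between 736 and 1817 CPM and endothelial markers to between 247 and 293 CPM. No marker of these 8 lists was at 0 counts in any library. The part of these cells, and of exon length, in the levels of the Kmt2 and Setd1 genes was not tested, and in bulk RNA fewer cells of a type cannot be told apart from less RNA per cell.

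Between genes, levels were compared as RPKM, which divides CPM by exon length in kilobases. By mean RPKM the partner genes came first: Men1 at 22.9 ± 3.29 RPKM, Wdr5 at 19.9 ± 4.88 RPKM and Ash2l at 17.1 ± 3.03 RPKM (SD, n = 4 here and below). Kmt2e followed at 12.9 ± 2.78 RPKM, then Kmt2b at 8.08 ± 0.799, Kmt2a at 7.37 ± 1.92 and Kmt2c at 6.30 ± 1.47 RPKM. Setd1b, Setd1a and Kmt2d closed the order at 4.60 ± 0.964, 3.17 ± 0.201 and 3.13 ± 0.793 RPKM. The place of Setd1a is uncertain, given its overlap with Gm49388 noted above. Among the 13245 genes detected in all tumours, Men1 exceeded 79.1% by mean RPKM and Kmt2d 22.7%. Of the 9 neighbouring pairs in this order, 5 differed beyond their spread, meaning the same sign in 4 of 4 tumours and a mean log2 difference above its SD. The pairs that did not were Men1 and Wdr5, Ash2l and Kmt2e, Kmt2b and Kmt2a, and Setd1a and Kmt2d.

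**Figure D4:**
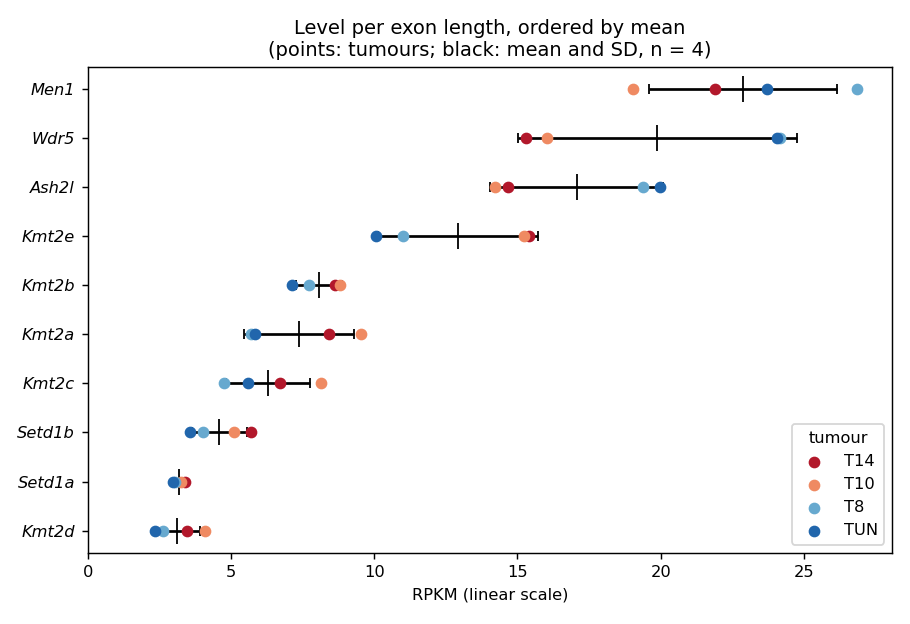
RPKM (x axis, linear from 0) of each gene (y axis) ordered by mean, with points for the 4 tumours and black bars for mean and SD. Men1, Wdr5 and Ash2l average 17.1 RPKM or more and the 6 H3K4 methyltransferase genes 8.08 RPKM or less.

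Within the paralog pairs the ratios differed in how steady they were. Kmt2c exceeded Kmt2d by 0.94 log2 units (T14), 0.98 (T10), 0.84 (T8) and 1.21 (TUN), a mean of 0.99 ± 0.15 (SD, n = 4), or 1.99-fold. Setd1a lay below Setd1b in 4 of 4 tumours, at -0.72, -0.63, -0.40 and -0.26 log2 units. The direction of this ratio is uncertain, because Gm49388 covers 51.8% of the exon bases of Setd1a. Were shared reads left uncounted, dividing by the full exon length would understate Setd1a, and the sign could change. Kmt2a and Kmt2b stood close to each other, at -0.04 (T14), 0.11 (T10), -0.44 (T8) and -0.28 (TUN), a mean of -0.16 ± 0.25 that was below 0 in 3 of 4 tumours. Wdr5 exceeded Ash2l by 0.20 ± 0.11 log2 units in 4 of 4 tumours. The two-sided exact sign-flip test gave p = 0.125 for the ratios with the same sign in all tumours, the smallest that 4 tumours allow, and p = 0.375 for Kmt2a over Kmt2b. None of the 4 ratios can be called. In CPM, without length scaling, the means for Kmt2a over Kmt2b and Wdr5 over Ash2l changed sign.

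Summed RPKM of the 6 H3K4 methyltransferase genes was 36.3 (T14), 39.0 (T10), 27.9 (T8) and 27.5 (TUN). The split of this sum among the branches changed little between tumours: Kmt2a and Kmt2b took 47.4 ± 0.544%, Kmt2c and Kmt2d 28.7 ± 2.07%, and Setd1a and Setd1b 23.9 ± 1.76% (SD, n = 4). The sum and its split rest in part on the RPKM of Setd1a, which is uncertain because Gm49388 covers 51.8% of its exon bases. Were shared reads left uncounted, dividing by the full exon length would understate Setd1a and the share of the Set1 pair. The 4 shared core genes Wdr5, Ash2l, Rbbp5 and Dpy30 summed to 68.8 RPKM (T14), 68.0 (T10), 86.0 (T8) and 88.8 (TUN). The ratio of core to methyltransferase RNA was thus 1.89 (T14), 1.74 (T10), 3.09 (T8) and 3.23 (TUN). T8 and TUN had the higher ratio, with both a higher core sum and a lower methyltransferase sum. These are ratios of RNA, not of protein. The core genes have merged exons of 0.97 to 5.24 kb, and the methyltransferase genes of 6.8 to 20.29 kb. Exon length moved with the order of the tumours, as given above. The ratio was not adjusted for length, and the part of length in it was not tested.

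**Figure D5:**
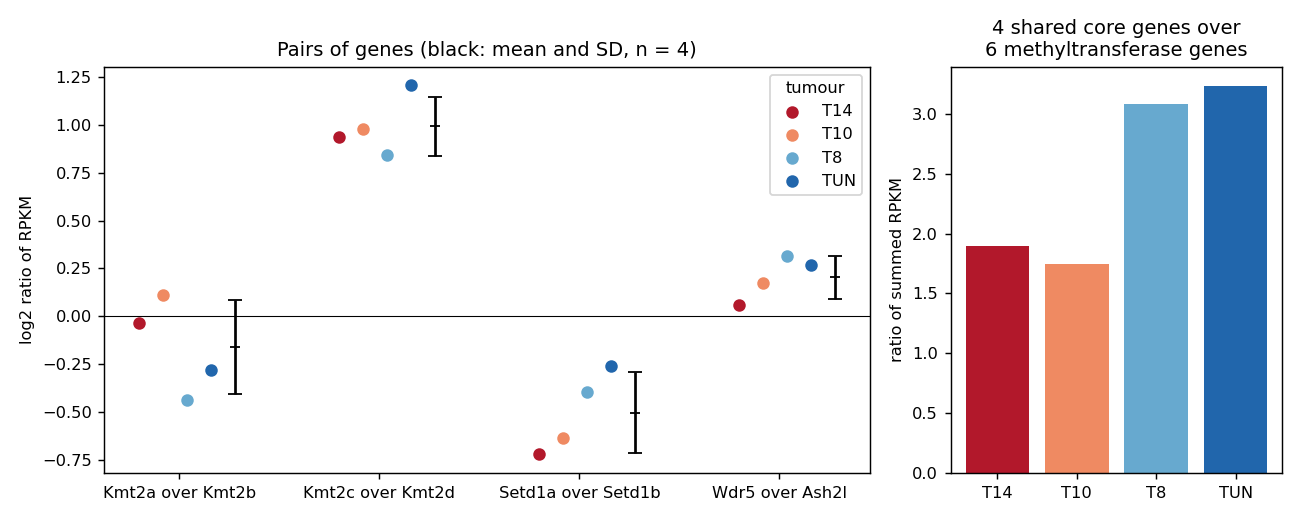
Left, log2 ratio of RPKM (y axis) for 4 pairs of genes, with points for tumours and black bars for mean and SD. Right, summed RPKM of the 4 shared core genes over that of the 6 methyltransferase genes, at 1.89 (T14), 1.74 (T10), 3.09 (T8) and 3.23 (TUN).

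The remaining COMPASS subunits had no common order of tumours. Of the shared core, Rbbp5 (56.0 ± 6.32 CPM) was higher in T14 and T10, as the enzymes were, and Dpy30 (26.0 ± 4.72 CPM) in T8 and TUN, as Wdr5 and Ash2l were, each by a step of 3.72 or 3.74 counting errors. Of the subunits particular to Set1 complexes, Wdr82, which links SETD1A to RNA polymerase, stood at 231 ± 18.3 CPM with a 1.19-fold range. Cxxc1 stood at 77.0 ± 5.17 CPM with a 1.16-fold range, and Bod1l, a SETD1A partner in fork protection, at 81.1 CPM (T14), 92.2 (T10), 51.1 (T8) and 59.7 (TUN).

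Of the MLL1 and MLL2 partners, Psip1, which encodes the LEDGF tether, stood at 281 ± 28.2 CPM, Hcfc1 at 220.4 ± 18.8 CPM and Hcfc2 at 42.5 ± 6.79 CPM. Of the MLL3 and MLL4 subunits, the H3K27 demethylase gene Kdm6a stood at 64.0 ± 5.53 CPM, Ncoa6 at 88.2 ± 8.29 CPM and Paxip1 at 54.8 ± 5.36 CPM. Psip1 was higher in T8 and TUN by a step of 5.07 counting errors. The step between the upper and the lower pair of tumours was 1.06 counting errors for Hcfc2, 0.40 for Kdm6a, 0.81 for Paxip1 and 0.20 for Hcfc1. Such steps are too small to order the tumours at this depth, and Wdr82 and Ncoa6 split the tumours in other ways. These subunits spanned no more than 1.49-fold between tumours, against 1.71-fold for Kmt2c and 1.73-fold for Kmt2d. Pagr1a was listed at 0 in every tumour, but other annotated genes cover 98.7% of its exon bases, so this is no sign of absence. Wdr5b, an intronless near copy of Wdr5, stood at 6.13 CPM (T14), 5.50 (T10), 7.25 (T8) and 8.66 (TUN), with a step of 1.48 counting errors between T8 and T14 that leaves its order unresolved. Reads of Wdr5 and Wdr5b could be exchanged where their sequences match.

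The H3K4 demethylases, which remove the mark, also fell on both sides. Kdm1a, the LSD1 gene, stood at 118 CPM (T14), 124 (T10), 179 (T8) and 167 (TUN). Kdm5c stood at 178 ± 20.4 CPM, and it, Kdm1a and Kdm1b were higher in T8 and TUN. Kdm5b (87.5 ± 17.1 CPM) and Kdm5a were higher in T14 and T10, with merged exons of 16.6 and 14.2 kb, by steps of 3.17 and 1.99 counting errors. Of the other genes listed as H3K4 methyltransferases, Setd7 stood at 347 CPM (T14), 216 (T10), 131 (T8) and 169 (TUN), a 2.65-fold range. Which lysines the products of these listed genes methylate was not measured. Ash1l stood at 140 ± 28.2 CPM and Smyd2 at 54.3 ± 5.81 CPM. Of the 6 genes of this list, 4 were higher in T14 and T10 and 0 in T8 and TUN. The shares of all genes tested were 33.0% and 32.5%. The step exceeded 2 counting errors in 3 of these 4. Ash1l and Setd7, both among the 4, have merged exons of 14.84 and 10.81 kb, and the list was not compared with genes of like length. In all 10 lists of related genes the edgeR goodness of fit called 0 of the 50 tested among 54 genes, and 1 had an unadjusted p under 0.05. DESeq2 marked 0 of them.

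Kmt2d, the gene with the widest range, was also compared with all 14256 other tested genes for likeness of profile. The measure was the root mean square difference of centred log2 CPM over the 4 tumours, and the 5 closest genes were Ifi27l2a, Prkaa2, Pm20d2, Miga1 and Usp11, at 0.038 to 0.042 log2 units. These distances take no account of counting error. Ifi27l2a, at 1.34 to 2.44 CPM, and Pm20d2, at 2.41 to 4.19 CPM, had low levels, so their places are uncertain. Prkaa2, which encodes a catalytic subunit of the AMP-activated kinase, stood at 25.9 CPM (T14), 32.5 (T10), 20.1 (T8) and 18.8 (TUN). Among the 10 genes themselves the closest pair was Kmt2e and Setd1b, at 0.054, followed by Kmt2b and Setd1a at 0.063 and Kmt2a and Kmt2d at 0.072. The most distant was Kmt2a and Wdr5, at 0.63. With 4 tumours such distances describe these libraries only.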

How the data were processed

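The authors deposited whole-number read counts per gene for 4 tumours, for which the submitters' processing notes name STAR, featureCounts and mm10, and GENCODE vM8 is the annotation named with the table. Versions, the strand setting and the treatment of shared reads were not given in the sources used here. No column name matches a single sample title, so the columns served as 4 tumours of group PDGFB K27M without replicate numbers, and 0 columns of sample values were left aside. Of 46946 gene identifiers, 46451 were paired with a symbol.

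Counts were scaled by TMM in edgeR 4.0.16 (R 4.3.3) to CPM and, with the deposited exon length, to RPKM. Log2 CPM used a prior count of 2 and log2 RPKM a pseudocount of 0.1. Variability was tested by the edgeR goodness of fit with 3 degrees of freedom, after the default low-count filter, and was tested on simulated data. DESeq2 1.42.0 was an alternative. The labels give no more than separate tumours, so p-values measure the spread between these samples alone. Counting errors are square roots of counts and cover counting error only, since reads carry no molecular identifiers.

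The genes and lists were chosen with earlier results of these data known. Named genes are the 10, all other COMPASS subunits listed, Wdr5b, the 3 most abundant genes of each other list with any called, and the 5 genes most like the widest-ranging member. Kdm1b, Kdm5a and the genes Gm49388 and Srpk2 were named after their values were seen. Dixon's ratio (critical value 0.829) was computed for 78 sets of 4 values, covering named genes, ratios and the sums and shares printed, and 2 exceeded it.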

Additional observations from a re-analysis of the deposited data

Results flagged for a closer look

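In 2 of 78 sets of 4 values 1 tumour lay far from the others by Dixon's ratio, which chance alone passes in about 1 of 20 sets. The summed CPM of cerebellar neuron markers was far higher in T14, at 3338 CPM, than in T10 (470.3), T8 (50.2) and TUN (47.5), a ratio of 0.872. The share of Kmt2a and Kmt2b in the summed RPKM of the 6 methyltransferase genes was highest in T8, at 48.2%, against 47.0% in T14, 47.1% in T10 and 47.2% in TUN, a ratio of 0.833. The second rests on a difference of about 1 percentage point in shares that are otherwise nearly equal.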

How the results depend on the processing

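The count of 0 called among the 10 genes, and of 0 among the related genes, was the same under RLE scaling, without the low-count filter, in DESeq2 and without each tumour in turn. In simulations the edgeR test recovered 0% of genes changed 2-fold. An unchanged 0 therefore says little about the 10 genes, none of which spanned more than 1.73-fold. Over all genes DESeq2 marked 78 genes against 619 in edgeR, and leaving out a tumour gave 426 to 462. The counts of 7 and 3 genes by order of tumours, settings added after seeing the data, held under RLE, library totals alone, and a prior count of 0.5. Leaving out a tumour cannot lower these counts and says nothing about them. With the length class median subtracted they were 6 and 3, and Kmt2b in T10 turned to -0.031. In CPM the log2 ratio of Kmt2a over Kmt2b turned to 0.63, Wdr5 over Ash2l turned to -0.34, Setd1a over Setd1b moved to -1.34, and 2 neighbouring pairs differed beyond their spread. These shifts are set by exon length. With pseudocount 1 Kmt2c over Kmt2d moved to 0.82. Neighbouring pairs beyond their spread numbered 5 to 6 without each tumour. The order of the 10 genes by level was the same without T14, without T10 and with pseudocount 1. It changed without T8, without TUN and in CPM. No paired analysis was possible because the tumours form 1 group and the columns carry no replicate number.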

Other observations

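Genes that are fused to Kmt2a in leukaemia, together with the H3K79 methyltransferase gene Dot1l that several of their products recruit, were higher in T14 and T10 in 6 of 10 cases and in T8 and TUN in 1, against 33.0% and 32.5% of all genes tested. The step between the pairs of tumours exceeded 2 counting errors in 4 of these 6. Aff1, Aff4, Mllt3 and Dot1l have merged exons of 8 kb or more, and the rest of the list is shorter. Of all tested genes of 8 kb or more, 49.3% were higher in T14 and T10 and 15.4% in T8 and TUN. The list was not compared with genes of like length. Aff4, the scaffold of the super elongation complex, stood at 342 CPM (T14), 370.0 (T10), 279 (T8) and 269 (TUN). Mllt6 stood at 126 CPM (T14), 109 (T10), 82.6 (T8) and 79.0 (TUN). Mllt1, the ENL reader gene, was the gene higher in T8 and TUN, at 90.9 CPM (T14), 77.1 (T10), 108 (T8) and 97.4 (TUN). Mllt11, named after its values were seen, was the 1 related gene with an unadjusted p under 0.05 in the edgeR goodness of fit, at 108 CPM (T14), 106 (T10), 38.6 (T8) and 46.2 (TUN).

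Genes for readers of H3K4 methylation had a median SD of log2 CPM of 0.13 over 12 tested genes, against 0.30 for all genes tested. The difference was not tested, and the genes were not matched for abundance or length. The subunits particular to Set1, MLL1 and MLL2, and MLL3 and MLL4 complexes had medians of 0.12, 0.14 and 0.13, each over 3 tested genes. Of the Set1 subunits, Bod1l had an SD of 0.39. Of the 13 reader genes 3 were higher in T14 and T10 and 4 in T8 and TUN, near the 33.0% and 32.5% of all genes tested. Bptf, the reader subunit of the NURF remodeller, stood at 160 ± 22.0 CPM, Phf2 at 131 ± 12.1 CPM and Spin1 at 125 ± 10.2 CPM (SD, n = 4). Of the 7 genes listed as menin partners or targets, 2 were higher in T8 and TUN, as Men1 was, and 1 in T14 and T10. The shares of all genes tested were 32.5% and 33.0%. The CDK inhibitor gene Cdkn2c, 1 of those 2, stood at 95.2 CPM (T14), 82.4 (T10), 153 (T8) and 177 (TUN). Cdkn1b stood at 210.2 ± 34.4 CPM and Jund at 79.7 ± 7.41 CPM. Hoxa9 and Hoxa10, classical targets of KMT2A fusions in leukaemia and likewise chosen with their values known, were at 0 counts throughout, which allows up to 0.134 CPM in TUN.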
